A study of Rattus norvegicus with 6 samples.

Results

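The genes that run DNA replication and cell division were examined in hearts from 2 rat strains, on Affymetrix Rat 230 2.0 arrays, which read each transcript near its 3′ end. The list held 50 genes, from the D cyclins of G1 through the replication machinery of S phase to the kinases, spindle and cytokinesis proteins of mitosis. Of these, 45 were measured by a probe set that the platform annotation ties to that gene alone, among 14217 genes so measured in all. Where a gene had several such probe sets, the one with the highest mean over the 6 arrays stood for it. Cdc6, Gins2, Rrm2, Tpx2 and Anln had no such probe set and are not analysed here.

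The control strain, Dahl S, is an inbred, salt-sensitive model of high blood pressure. Its congenic partner, S.LEW(10)x12x2x3x5, carries a piece of Lewis rat chromosome 10 on the Dahl S background, and the limits of that piece are not stated in the sources used here. All rats were male and shared 1 birth date, were weaned at 30 days, shared cages pairwise (1 rat of each strain), ate a diet with 0.3% salt, the low-salt diet, and were killed at 53 days. Heart RNA of 2 rats was pooled for each array, and each strain gave 3 arrays, so 6 rats stood behind each strain mean and no value belongs to 1 animal. All values are log2 expression per probe set, on which a difference of 1 is a doubling, and every difference is congenic minus Dahl S. Arrays are called 1, 2 and 3 within a strain, as labelled, and values are always given in that order.

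Cell cycle genes are transcribed in waves. At the passage from G1 to S phase, cyclin D and cyclin E kinases release the E2F factors from the pocket proteins, and E2F switches on the replication genes. Later, in G2 and mitosis, a second wave is switched on through a short element near the start site called the CHR, often with CCAAT boxes, on which the DREAM complex represses in resting cells and B-MYB and FOXM1 activate in dividing cells. Most heart muscle cells stop dividing soon after birth, whereas fibroblasts, endothelial cells and macrophages of the heart can still divide. In RNA from whole tissue, more dividing cells and more RNA per dividing cell cannot be told apart.

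These elements were looked for in the sequence around the start sites. Windows of 300 bases (250 before to 50 after the start, RefSeq, GRCr8) were given for 37 of the 50 genes, 26 mitotic, 10 of S phase and 1 of G1. They were searched on both strands. The start of a window was also the annotated 5′ end of its gene for 14 of the 37, so distances are from the window's own start. The CHR was read as TTTGAA, and a window with its less common form, TTCGAA, was counted too. The CCAAT box was read as spelled. The E2F site was read as TTTCGCGC, TTTGGCGC or TTTCCCGC. None of these words contains another, although matches can overlap in a sequence. The stretches below run from 150 bases before the start to the tenth base after it, 5′ to 3′ along the gene, with matches in capitals. They were chosen to show the elements: they belong to the 3 mitotic genes of smallest p among those with a CHR match, and to the S-phase gene of smallest p among those with an E2F match.

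Prc1 (chr1:143659331-143659490, plus strand): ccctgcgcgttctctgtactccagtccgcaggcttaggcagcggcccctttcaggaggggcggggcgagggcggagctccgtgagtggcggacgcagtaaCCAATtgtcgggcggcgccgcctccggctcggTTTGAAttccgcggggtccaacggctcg
Bub1b (chr3:126016917-126017076, plus strand): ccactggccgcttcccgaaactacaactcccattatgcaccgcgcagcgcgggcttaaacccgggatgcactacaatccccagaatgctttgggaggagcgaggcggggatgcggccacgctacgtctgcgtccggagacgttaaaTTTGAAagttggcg
Mki67 (chr1:199952584-199952743, minus strand): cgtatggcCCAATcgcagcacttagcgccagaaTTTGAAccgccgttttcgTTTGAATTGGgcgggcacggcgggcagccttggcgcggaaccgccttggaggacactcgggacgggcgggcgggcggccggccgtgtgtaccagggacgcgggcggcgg
Tyms (chr9:120776074-120776233, minus strand): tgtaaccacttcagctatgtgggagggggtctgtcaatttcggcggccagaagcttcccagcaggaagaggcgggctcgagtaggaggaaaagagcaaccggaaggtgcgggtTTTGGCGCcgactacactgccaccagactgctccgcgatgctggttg

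In Prc1 a CCAAT box starts 50 bases and a CHR 18 bases before the start site. In Bub1b the CHR begins 4 bases before the start, and no CCAAT lies in the stretch shown. Mki67 has a CHR at 117 bases and another at 99 bases before the start, the latter running into a CCAAT box read on the opposite strand. Tyms has neither, and its E2F match starts 37 bases before the start. Over all windows, CHR and E2F matches differed in share between the roles and CCAAT matches were common in both. A CHR match was in 19 of 26 mitotic windows (73.1%) and 3 of 10 S-phase windows (30.0%), against 19.7% of all 33469 RefSeq windows. An E2F match was in 7 of 10 S-phase windows (70.0%) and 1 of 26 mitotic windows, that of Cdk1, against 1.72% of all windows. CCAAT was in 21 of 26 mitotic and 7 of 10 S-phase windows, against 37.5%. These matches are a description of the letters, not of bound factors. Among measured mitotic genes, a CHR was in 9 of 11 windows of genes with an unadjusted p under 0.05 and in 9 of 14 of the others. Cdca3, which had the smallest p of the 45 genes, has CCAAT boxes and no CHR match in its window.

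No gene of the list passed the test between the strains. In limma with Benjamini-Hochberg adjustment over 31042 probe sets, 0 of 45 had an adjusted p under 0.05, a threshold that 0.0352% of all genes passed, and the adjusted p of the 45 genes ran from 0.519 to 0.994. The differences were small and mostly of one sign: 44 of 45 genes were higher in the congenic mean, with a median difference of 0.18 against -0.01 over all genes. At an unadjusted p under 0.05, 16 of 45 genes (35.6%) were higher in the congenic heart, where 3.47% of all genes were higher, and 0 were lower, where 3.55% of all genes were lower. The 3 congenic arrays all exceeded the 3 Dahl S arrays for 13 genes, against 5.89% of all genes. The count of 16 was 10 (22.2%) without Dahl S array 1, where 651 of all 14217 genes (4.58%) were higher. It was 8 without congenic array 3, where 372 of all 14217 were higher. The p-values measure the spread between pools of hearts, 3 per strain.

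The median difference was larger for the mitotic genes than for those of replication. All 30 measured mitotic genes were higher in the congenic mean, with a median of 0.26 and a range from 0.01 to 0.50, and 15 of them had an unadjusted p under 0.05. Of the 10 measured S-phase genes, 9 were higher, with a median of 0.04 and a range from -0.07 to 0.20, and 1, Tyms, had an unadjusted p under 0.05. The 5 G1 genes had a median of 0.11, and 0 had an unadjusted p under 0.05. Over all genes 3.47% (494 of 14217) were higher at that threshold, and each role count below stands beside that share. With 1 array left out, 343 to 651 of the 14217 were higher, and the left-out counts stand beside that range. The gap between the mitotic and the S-phase medians was 0.22, and it stayed between 0.14 and 0.26 in every alternative run, including each array left out. No test was made of this gap, because the genes were chosen with earlier results of these data known.

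**Figure D1:**
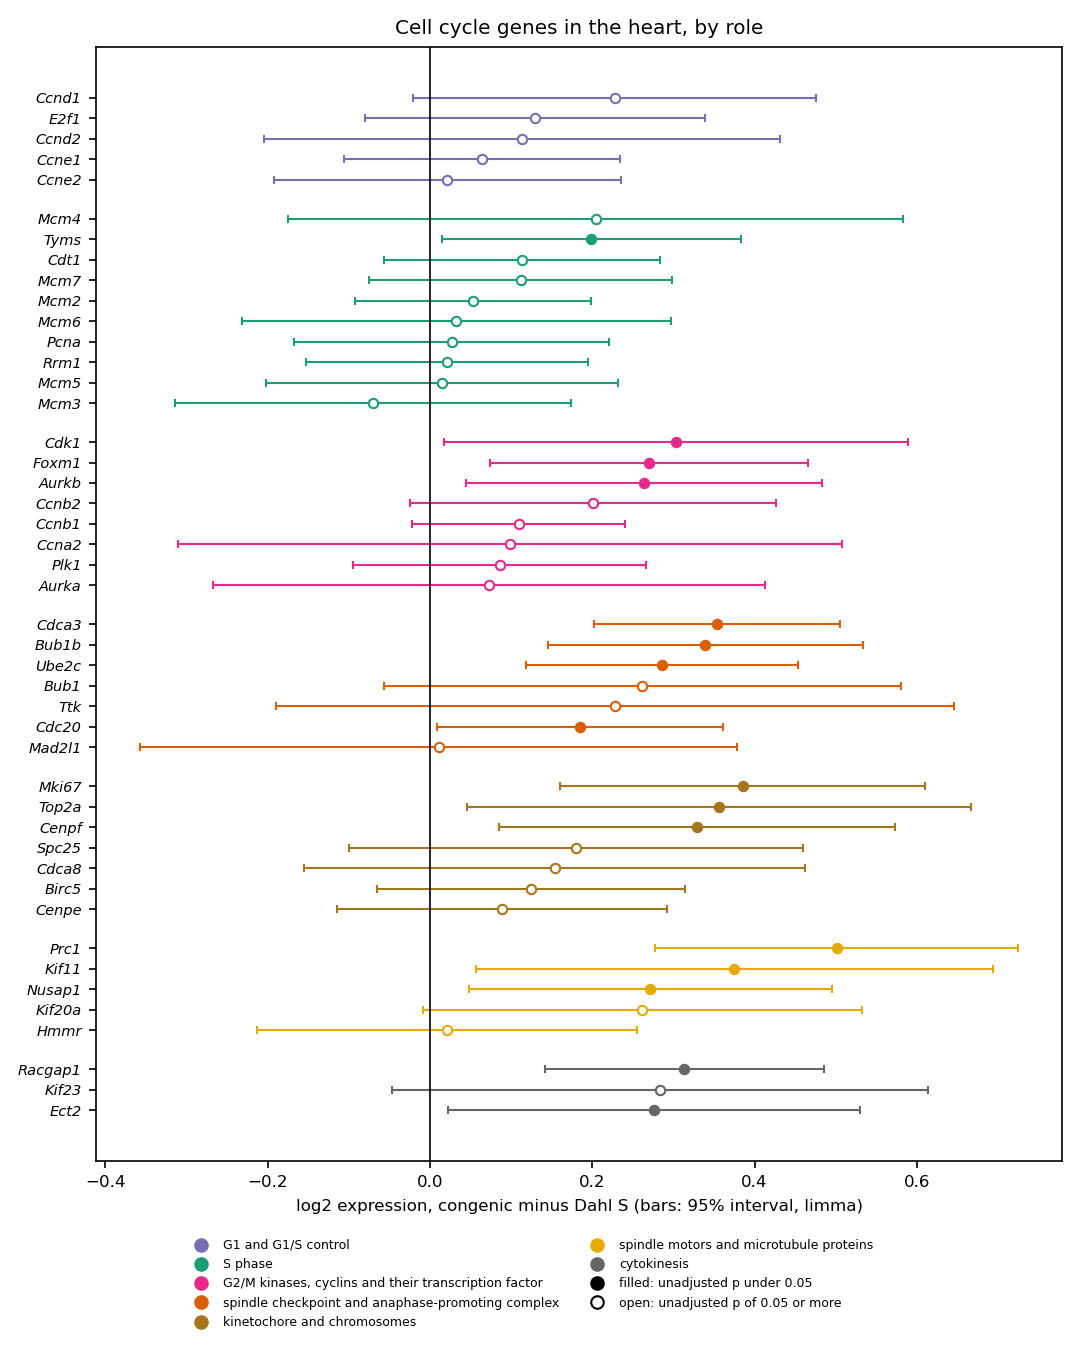
Difference in log2 expression (x axis, congenic minus Dahl S) for the 45 measured genes (y axis), coloured by role, with points for limma estimates, bars for their 95% intervals and filled points for an unadjusted p under 0.05. The S-phase genes lie around their median of 0.04, and the 30 mitotic genes all lie to the right of 0, up to 0.50 for Prc1.

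In G1, the D cyclins bind CDK4 and CDK6 and couple growth signals to the cell cycle. Ccnd1, cyclin D1 (probe set 1383075_at), read 10.90, 10.84 and 10.66 in Dahl S and 10.89, 10.95 and 11.25 in congenic hearts, a difference of 0.23 (SE 0.11, limma adjusted p = 0.769), and its unadjusted p was above 0.05. The strains overlapped there, since congenic array 1 lay below Dahl S array 1. Its other probe sets, 1371643_at and 1371150_at, gave nearly the same difference with less spread, 0.23 and 0.22, with an unadjusted p under 0.05 on both and the lowest congenic array above the highest Dahl S array. Neither passed the adjusted threshold (limma adjusted p = 0.721 and 0.731). Ccnd2, cyclin D2, read 10.56, 10.32 and 10.08 in Dahl S and 10.33, 10.32 and 10.65 in congenic hearts, a difference of 0.11 (limma adjusted p = 0.905). Its spread within Dahl S was wider than the difference, and without Dahl S array 3 the difference was -0.01. E2f1, the activating transcription factor of the G1/S wave, differed by 0.13, and the E cyclins Ccne1 and Ccne2, partners of CDK2, by 0.06 and 0.02. A dimmer probe set of Ccne2 gave 0.25, with overlapping strains and an unadjusted p above 0.05.

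The S-phase genes differed little between the strains beside their spread between arrays. Mcm2, a subunit of the ring-shaped helicase that unwinds DNA at the fork, read 7.82, 7.89 and 7.95 in Dahl S and 7.88, 7.92 and 8.0 in congenic hearts, a difference of 0.05 (95% interval -0.09 to 0.20). Mcm6 of the same ring read 7.40, 7.48 and 7.85 against 7.57, 7.59 and 7.66, a difference of 0.03 (-0.23 to 0.30). For Mcm6 the highest of the 6 arrays was Dahl S array 3, and the difference turned to -0.06 when Dahl S array 1 was left out, to -0.02 for array 2 and to 0.17 for array 3. Pcna, the sliding clamp that holds the polymerase on DNA, read 9.94, 10.04 and 10.15 in Dahl S and 10.14, 9.93 and 10.14 in congenic hearts, a difference of 0.03 (-0.17 to 0.22). The congenic values span nearly the same range as those of Dahl S, and the sign turned when Dahl S array 1, congenic array 1 or congenic array 3 was left out. The upper ends of the intervals of Mcm2 (0.20) and Pcna (0.22) lie below the mitotic median of 0.26, and that of Mcm6 (0.30) lies above it. All 3 exceed the differences of some mitotic genes, such as Cdc20 (0.18).

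The remaining helicase subunits were mixed. Mcm4 differed by 0.20 and Mcm7 by 0.11, both with overlapping strains, while Mcm5 stood at 0.01 and Mcm3, at -0.07, was the only gene of the 45 that was lower in the congenic mean. Cdt1, which loads the helicase onto origins, differed by 0.11, and Rrm1, the large subunit of the enzyme that makes deoxynucleotides, by 0.02. Tyms, thymidylate synthase, was the 1 replication gene whose strains did not overlap. It read 5.66, 5.53 and 5.58 in Dahl S and 5.70, 5.72 and 5.94 in congenic hearts, a difference of 0.20 (SE 0.08, limma adjusted p = 0.736). The margin between Dahl S array 1 and congenic array 1 was narrow. With 1 array left out the S-phase count ran from 0 (without Dahl S array 2 or without congenic array 3) to 3 (without Dahl S array 3), and the median of the 10 genes was 0.01 without congenic array 3, and leaving out Dahl S array 1 or array 3 gave 0.02 or 0.13.

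Entry into mitosis is driven by CDK1 with the A and B cyclins, backed by the Aurora and Polo kinases. In this role 3 of 8 genes had an unadjusted p under 0.05, and the median difference was 0.16. The count was 1 without either Dahl S array 1 or congenic array 3, 2 without either Dahl S array 2 or congenic array 2, and 5 without Dahl S array 3. Foxm1, the transcription factor of the G2/M wave, read 6.43, 6.59 and 6.57 in Dahl S and 6.67, 6.79 and 6.94 in congenic hearts, a 1.21-fold difference (0.27, SE 0.08, limma adjusted p = 0.731). The strains did not overlap for Foxm1, and its unadjusted p stayed under 0.05 whichever array was left out. Its second probe set, a dim one, gave 0.10 with overlapping strains.

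Cdk1, the mitotic kinase itself, read 7.17, 7.46 and 7.57 in Dahl S and 7.56, 7.66 and 7.90 in congenic hearts, a difference of 0.30 (SE 0.12, limma adjusted p = 0.738). Dahl S array 1 was the lowest, and Dahl S array 3 lay just above congenic array 1, so the strains overlapped. Aurkb, the kinase that corrects wrong attachments of chromosomes to the spindle, read 5.22, 5.58 and 5.43 against 5.64, 5.62 and 5.76, a difference of 0.26 (SE 0.09, limma adjusted p = 0.736). Its strains did not overlap, although Dahl S array 2 came close to congenic array 2. Ccnb1, cyclin B1, read 6.80, 6.74 and 6.83 in Dahl S and 6.88, 6.87 and 6.95 in congenic hearts, a difference of 0.11 (SE 0.06). Ccnb2, cyclin B2, read 7.59, 7.74 and 7.78 against 7.78, 8.10 and 7.82, a difference of 0.20 (SE 0.10). For both B cyclins the strains did not overlap, for Ccnb2 by a hairline, yet neither reached an unadjusted p under 0.05. A dimmer probe set of Ccnb1 gave 0.21 with overlapping strains. Plk1, the Polo kinase, read 7.72, 7.61 and 7.47 against 7.66, 7.76 and 7.64, and its difference of 0.09 (SE 0.08) lay within the spread of the Dahl S arrays. Ccna2, cyclin A2, and Aurka, the kinase of the spindle poles, stood at 0.10 and 0.07, and for both the highest of the 6 arrays was Dahl S array 3.

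The spindle checkpoint holds the anaphase-promoting complex in check until all chromosomes are attached, after which that complex tags the mitotic regulators for degradation. Here 4 of 7 genes had an unadjusted p under 0.05 (3 or 4 with any 1 array left out), and the median was 0.26. Cdca3, an adaptor in the degradation of the inhibitory kinase Wee1, had the smallest p of the list. On probe set 1374449_at it read 7.14, 7.22 and 7.25 in Dahl S and 7.54, 7.49 and 7.65 in congenic hearts, a 1.28-fold difference (0.35, SE 0.07, limma adjusted p = 0.519). The lowest congenic array lay well above the highest Dahl S array. Its difference ran from 0.31 to 0.39 with each array left out.

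Bub1b, the checkpoint protein BubR1, read 5.04, 5.24 and 5.10 in Dahl S and 5.53, 5.32 and 5.55 in congenic hearts, a 1.27-fold difference (0.34, SE 0.08). Ube2c, the ubiquitin-conjugating enzyme of the anaphase-promoting complex, read 6.84, 7.05 and 7.04 against 7.22, 7.25 and 7.31, a 1.22-fold difference (0.29, SE 0.07). Neither overlapped between strains, and both had a limma adjusted p of 0.721. Cdc20, the activator of that complex, read 7.40, 7.50 and 7.64 against 7.63, 7.72 and 7.75, a difference of 0.18 (limma adjusted p = 0.743), with Dahl S array 3 just above congenic array 1. Of its 4 other probe sets, 2 had an unadjusted p under 0.05 (0.21 and 0.25) and 2 did not (0.08 each). Among the checkpoint kinases, Bub1 stood at 0.26 and Ttk at 0.23, both with overlapping strains. A second, dim probe set of Ttk read -0.00. Mad2l1, the checkpoint protein MAD2, stood at 0.01 on its brightest probe set and at -0.18 on a dimmer one, 1378028_at, where the highest congenic array lay below the lowest Dahl S array with an unadjusted p under 0.05 (limma adjusted p = 0.744), so its probe sets disagree. The last of its probe sets gave 0.025.

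**Figure D2:**
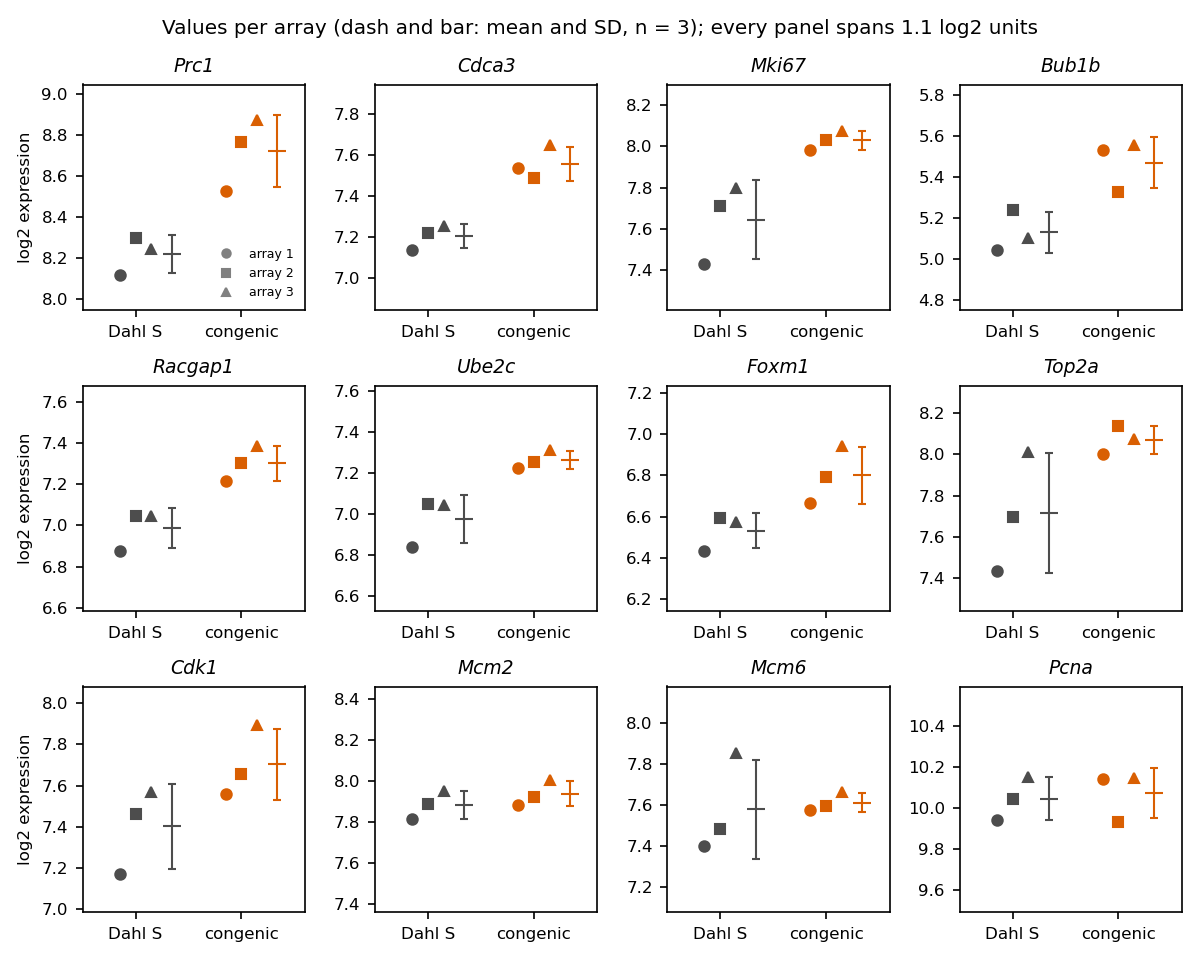
Log2 expression on each array (y axis, every panel spanning the same range of log2 units) for 9 mitotic genes and the S-phase genes Mcm2, Mcm6 and Pcna, by strain (x axis), with symbols for arrays 1, 2 and 3 and a dash with a bar for the mean and SD of 3 arrays. Prc1, Cdca3, Mki67, Bub1b, Racgap1, Ube2c and Foxm1 show no overlap between strains, and Mcm2, Mcm6 and Pcna overlap throughout.

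The proteins of the chromosomes and kinetochores, the structures by which chromosomes hold on to the spindle, gave 3 of 7 genes with an unadjusted p under 0.05 and a median of 0.18. The count was 1 without congenic array 3, 2 without Dahl S array 1, Dahl S array 2 or congenic array 2, and 4 without Dahl S array 3. Mki67, the Ki-67 antigen that coats mitotic chromosomes and is the standard marker of cycling cells, read 7.43, 7.71 and 7.80 in Dahl S and 7.98, 8.03 and 8.08 in congenic hearts. This was a 1.31-fold difference (0.39, SE 0.10, limma adjusted p = 0.721), and the strains did not overlap. The 3 congenic arrays lay close together, and most of the spread was within Dahl S, whose array 1 was lowest.

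Top2a, the topoisomerase that untangles sister DNA before they part, read 7.43, 7.70 and 8.01 in Dahl S and 8.0, 8.14 and 8.07 in congenic hearts, a difference of 0.36 (SE 0.13, limma adjusted p = 0.736). Dahl S array 3 reached the level of congenic array 1, and without Dahl S array 1 the difference was 0.22. A second probe set of Top2a gave 0.16, with an unadjusted p above 0.05. Cenpf, a large protein of the outer kinetochore, read 6.85, 7.02 and 6.71 against 7.01, 7.24 and 7.32, a difference of 0.33 (SE 0.10, limma adjusted p = 0.736), with Dahl S array 2 just above congenic array 1. Spc25, of the complex that grips the microtubule, stood at 0.18, and Cenpe, a kinetochore kinesin, at 0.09. Birc5 (survivin) and Cdca8 (borealin), which place Aurkb on the centromere, stood at 0.12 and 0.15. For each of these 4 genes the strains overlapped.

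Of the spindle proteins, 3 of 5 had an unadjusted p under 0.05, and the median was 0.27. The count was 1 without congenic array 2 and 2 when Dahl S array 1 or congenic array 3 was left out. Prc1, which bundles the overlapping microtubules of the midzone between separating chromosomes, had the largest difference of the list. On probe set 1392899_at it read 8.12, 8.30 and 8.25 in Dahl S and 8.53, 8.77 and 8.87 in congenic hearts, a 1.42-fold difference (0.50, SE 0.10, 95% interval 0.28 to 0.72, limma adjusted p = 0.523). The strains were well apart, and the difference ran from 0.43 to 0.60 with each array left out. Kif11, the motor that pushes the spindle poles apart, read 6.16, 6.23 and 6.62 against 6.55, 6.67 and 6.91, a difference of 0.38 (SE 0.14, limma adjusted p = 0.736), with Dahl S array 3 above congenic array 1. Its second probe set had a difference of 0.29 (SE 0.06) and no overlap. Nusap1, a microtubule-binding protein of the spindle, read 7.82, 8.07 and 8.20 against 8.26, 8.35 and 8.28, a difference of 0.27 (SE 0.10, limma adjusted p = 0.736). Its strains did not overlap, and a second probe set gave 0.15, with an unadjusted p above 0.05. Kif20a, a motor of the late spindle, stood at 0.26, with an unadjusted p above 0.05, and Hmmr, a spindle assembly protein, at 0.02. A second, dimmer probe set of Hmmr gave 0.21 with overlapping strains, so its probe sets disagree in size.

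Cytokinesis, the cutting of the cell, starts when centralspindlin (Kif23 with Racgap1) recruits Ect2, the exchange factor that switches on RhoA. All 3 measured genes of this step stood near 0.3. Racgap1 read 6.88, 7.05 and 7.04 in Dahl S and 7.21, 7.30 and 7.39 in congenic hearts, a 1.24-fold difference (0.31, SE 0.07, limma adjusted p = 0.721). Its second probe set gave 0.27 (SE 0.07), and on both the strains did not overlap. Ect2 read 6.38, 6.63 and 6.63 against 6.75, 6.68 and 7.03, a difference of 0.28 (SE 0.11, limma adjusted p = 0.736), with no overlap. Kif23 stood at 0.28 (SE 0.14), and at 0.17 on a dimmer probe set, with overlapping strains on both. The count of 2 of 3 was 1 without Dahl S array 1 or congenic array 3 and 3 without Dahl S array 2.

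Of the 16 genes with an unadjusted p under 0.05, 7 kept it with any 1 array left out: Prc1, Cdca3, Racgap1, Bub1b, Mki67, Ube2c and Foxm1. The direction held with any 1 array left out for 23 of the 30 mitotic genes and 5 of the 10 S-phase genes. The shares of all genes that kept such a p or their direction are not given here, so these counts stand without a background. Over the 18 other probe sets, which read 13 of the genes, the median difference was 0.19, 16 were positive, and an unadjusted p under 0.05 was met by 6 in the higher direction and 1 in the lower. The arrays themselves differed in level. Dahl S array 1 was the lowest of the 6 for 24 of the 30 mitotic genes, and congenic array 3 was the highest for 20 of them. Over all 14217 genes, Dahl S array 1 was the lowest for 3347 and congenic array 3 the highest for 1630. The median deviation of the mitotic genes from their own means over 6 arrays was -0.28, -0.07 and -0.03 in Dahl S and 0.04, 0.11 and 0.20 in congenic hearts, so the strains did not overlap, with Dahl S array 3 and congenic array 1 close together. For the S-phase genes it was -0.12, -0.10 and 0.08 against 0.03, 0.01 and 0.07, with the highest value in Dahl S. The mitotic minus S-phase value was -0.16, 0.03 and -0.11 against 0.01, 0.10 and 0.13, so that Dahl S array 2 lay above congenic array 1.

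**Figure D3:**
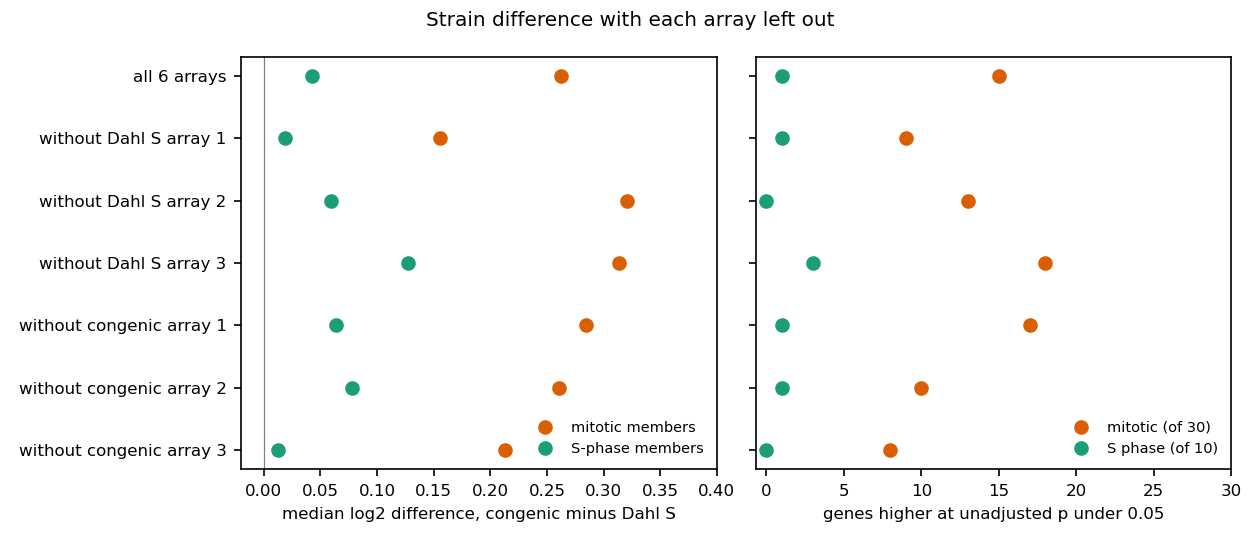
Median log2 difference between strains (left, x axis) and number of genes higher at an unadjusted p under 0.05 (right, x axis) for the mitotic and the S-phase genes, with all 6 arrays and with each array left out (y axis). The mitotic median stays between 0.16 and 0.32 and the S-phase median between 0.01 and 0.13, and the mitotic count drops to 9 without Dahl S array 1 and to 8 without congenic array 3.

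Leaving out Dahl S array 1 moved the mitotic median from 0.26 to 0.16 and the mitotic count from 15 to 9, and leaving out congenic array 3 moved the count to 8. Further genes of the same waves, on lists that share no gene with the 50, gave a like picture on the same 6 arrays. They were also chosen with earlier results known, so they are not separate support. Of the 51 mitotic genes among them, Dahl S array 1 was the lowest for 28 and congenic array 3 the highest for 23. Of 51 other measured mitotic genes, at an unadjusted p under 0.05 there were 21 higher and 1 lower (12 higher without congenic array 3, 16 to 23 without any other array), 0 passed the adjusted threshold, and the median was 0.18. The 6 of smallest p were Melk (0.40), a kinase of dividing cells, Espl1 (0.34), the separase that cuts cohesin, Cenpk (0.29), of the inner kinetochore, Arhgap11a (0.33), a regulator of RhoA, Iqgap3 (0.40), a scaffold protein, and Kif18b (0.48), a kinesin of the astral microtubules. Melk came nearest to the threshold (limma adjusted p = 0.307). The strains did not overlap for any of these 6. Ncapg2, a condensin II subunit, was the 1 that was lower, at -0.22 (SE 0.09).

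Of 31 other measured S-phase genes, 1 (3.23%) was higher at an unadjusted p under 0.05, near the 3.47% of all genes. It was Pole (0.19), the catalytic subunit of a replicative polymerase, and the median of the list was 0.03. The count of 1 was 4 when Dahl S array 3 was left out and 2 when array 2 was. Of 24 CDK inhibitors, pocket proteins and repressors, 1 (4.17%) was higher at that threshold, the inhibitor Cdkn2c (0.20), also near the share of all genes. In that list 0 were lower, and the median was -0.02. The count higher was 0 when Dahl S array 1 or 2 or congenic array 1 or 2 was left out. The inhibitors p21 (Cdkn1a), p27 (Cdkn1b) and p57 (Cdkn1c) stood at -0.01, 0.05 and 0.00, and the pocket protein gene Rb1 at -0.07. Of 12 other G1 genes 0 had an unadjusted p under 0.05, and their median was 0.04.

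Markers of several other cell types were uneven between the strains or between single arrays. Beside the counts given here, 3.47% of all genes were higher at an unadjusted p under 0.05 and 3.55% were lower. With 1 array left out, 343 to 651 of all 14217 genes were higher and 309 to 712 lower. Of the 8 heart muscle markers 7 were measured, all brighter than the median probe set. Of these 6 were lower in the congenic mean, by at most 0.05, and 0 had an unadjusted p under 0.05. Their summed linear level was 158288 to 159825 in Dahl S and 155986 to 157568 in congenic hearts, without overlap. At an unadjusted p under 0.05, macrophage markers were higher for 5 of 14 genes (Adgre1 0.40, C1qb 0.19, C1qc 0.24, Fcgr3a 0.23 and Cd14 0.23), with 4 of 14 dimmer than the median probe set and summed levels of 4814 to 6428 in Dahl S and 5826 to 6015 in congenic hearts. That count was 3 without Dahl S array 1, congenic array 2 or congenic array 3, and 10 without Dahl S array 3. Their median deviation was -0.19, -0.12 and 0.02 against 0.04, 0.04 and 0.15, so that Dahl S array 1 was lowest and congenic array 3 highest, as for the mitotic genes. Of the 14 macrophage markers 12 were positive and 2 negative, Ptprc (-0.37) and Cd163 (-0.02), and 0 were lower at an unadjusted p under 0.05.

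By the same measure erythroid markers were higher for 3 of 10 genes: Klf1 (0.56), a transcription factor of red cell precursors, Ahsp (0.40), which binds free alpha globin, and Alas2 (0.36), of haem synthesis. Of the 10, 5 were dimmer than the median probe set, and the summed level was 27628 to 32394 in Dahl S and 33153 to 34001 in congenic hearts. The count was 6 without Dahl S array 2 and 2 without congenic array 1 or congenic array 2. Fibroblast markers were higher for 2 of 9, Col1a1 (0.24) and Col1a2 (0.39), and for 5 without congenic array 1 and 6 without Dahl S array 3, with summed levels of 47773 to 52102 against 52688 to 60036. Mesothelial markers were positive for 7 of 7 genes and higher at that threshold for 2 (3 without congenic array 2), with summed levels of 808 to 889 in Dahl S and 942 to 1002 in congenic hearts. Smooth muscle markers were positive for 7 of 7 and higher at the threshold for 0 (3 without Dahl S array 3), with summed levels of 14537 to 15423 against 15725 to 16571. The strains did not overlap in the summed level of either, nor in that of the erythroid or the fibroblast markers. A summed linear level weighs the brightest genes most. By median deviation the strains overlapped for the fibroblast markers (-0.122 to -0.003 in Dahl S, -0.020 to 0.148 in congenic hearts). They also overlapped for the smooth muscle markers (-0.09 to 0.10 against 0.01 to 0.10), but not for the erythroid or mesothelial markers. Endothelial markers were higher for 1 of 8 (0 with any array but Dahl S array 3 left out), and nerve markers for 0 of 4. Of 6 adipocyte markers 1, Lep, was higher (0 with any array but congenic array 2 left out) and the other 5 were negative. Of 6 neutrophil and mast cell markers 3 were higher and 1 was lower (0 higher without congenic array 3, 1 when Dahl S array 1 or congenic array 2 was dropped). The part of these cell types in the mitotic difference was not tested.

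T cell markers followed 2 arrays instead. Of 11 measured genes 0 differed between strains at an unadjusted p under 0.05 (1 was higher without Dahl S array 3 and 1 lower without Dahl S array 2), 7 were dimmer than the median probe set, and the summed level was 781, 749 and 2691 in Dahl S and 2082, 774 and 739 in congenic hearts. The thymocyte genes Rag1, Rag2, Dntt, Ptcra and Themis were not measured here. Without the arrays of high T cell signal (Dahl S array 3 and congenic array 1, a choice made after seeing the data), the mitotic median was 0.33 with 18 of 30 genes higher, and the S-phase median was 0.13 with 1 of 10 higher. By mitotic median deviation these were also the highest Dahl S array (-0.03) and the lowest congenic array (0.04). Leaving them out therefore favours a larger mitotic difference whatever their T cell level, and the run cannot tell what part T cells had. Dahl S array 3, with the highest T cell level, also had the highest S-phase median of the 6 arrays and the highest summed level of the 4 B cell markers (583, against 230 to 271 on the others). Congenic array 1, with the next highest T cell level, had an S-phase median deviation of 0.03. That is below the 0.07 of congenic array 3, whose summed T cell level was low (739, beside 749 to 781 on Dahl S arrays 1 and 2 and congenic array 2). The part of lymphocytes in the S-phase values was not tested.

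**Figure D4:**
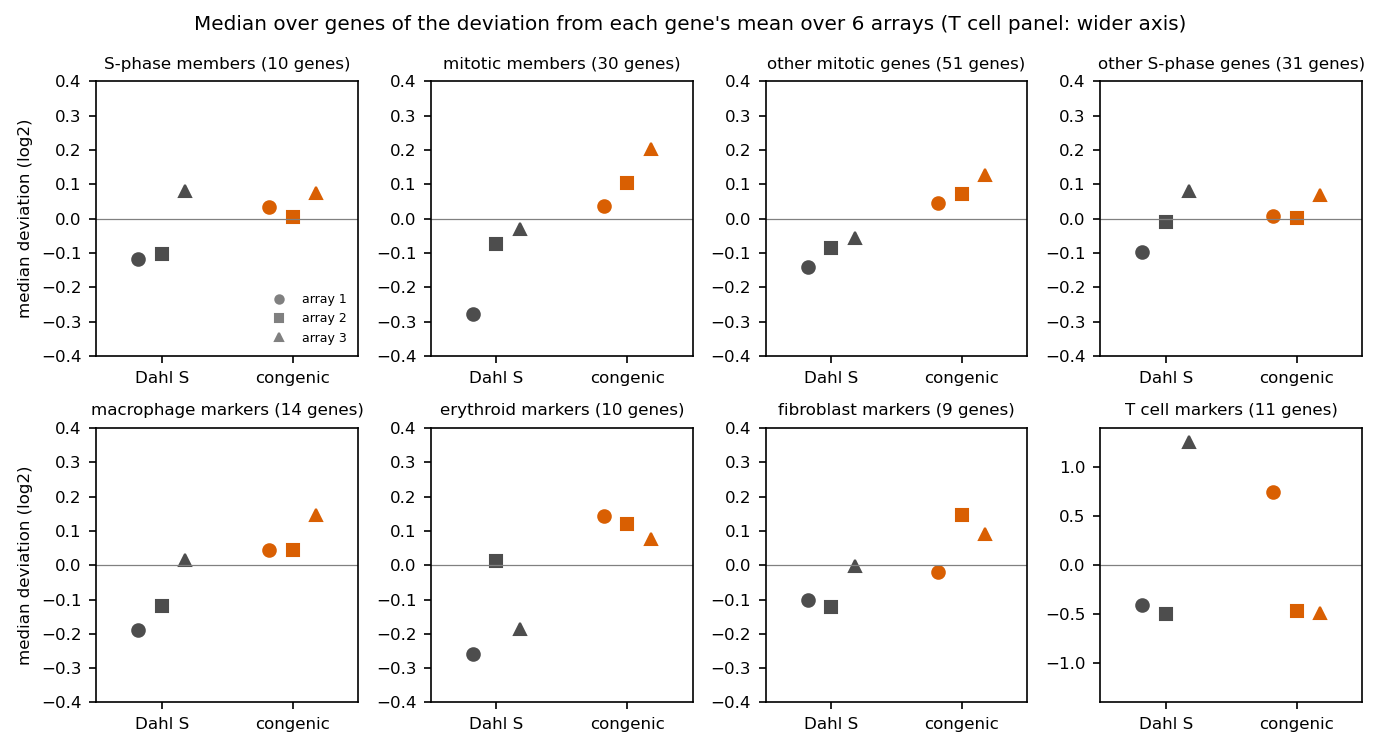
Median over the genes of each list of the log2 deviation from each gene's mean over 6 arrays (y axis, wider for the T cell panel), for each array by strain (x axis), with symbols for arrays 1, 2 and 3. The mitotic and the other mitotic genes lie below 0 in all Dahl S arrays and above 0 in all congenic arrays, the S-phase genes overlap, and the T cell markers stand out in Dahl S array 3 (1.26) and congenic array 1 (0.75).

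Array quality did not separate the strains. Pearson correlations between arrays ran from 0.993 to 0.998, and 0 arrays were identical. The 3′ to 5′ difference of the GAPDH control probe sets was 0.49 to 0.54 and that of actin 1.00 to 1.07. The spiked-in hybridization controls read higher on Dahl S array 3 (11.54) and congenic array 2 (11.55) than on the other 4 arrays (10.67 to 10.83). Within those 4 arrays the mitotic median was 0.33 and the S-phase median 0.15, with 28 of 30 and 9 of 10 genes positive. Between the other 2 arrays, a pair with no test, they were 0.14 and -0.07, with 23 of 30 and 3 of 10 positive. The 4 arrays include Dahl S array 1 and congenic array 3, the lowest and the highest by mitotic median deviation (-0.28 and 0.20). The larger mitotic median within them therefore cannot be told apart from the choice of arrays.

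Of the 45 measured genes, 4 lie on chromosome 10, the chromosome of the Lewis segment: Hmmr (0.02), Aurkb (0.26), Top2a (0.36) and Birc5 (0.12). In the order of the GRCr8 annotation they lie 460 and 230 measured genes before and 188 and 450 after Rffl, a chromosome 10 gene that earlier papers on these rats dealt with. Whether any of them lies inside the segment cannot be read from the sources used here. The other 41 genes, among them Prc1, Cdca3, Racgap1, Bub1b, Mki67 and Ube2c, lie on other chromosomes.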

How the data were processed

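Total RNA from rat hearts was labelled and hybridized to Affymetrix Rat 230 2.0 arrays, per the labels' protocols. Per the submitters' processing notes the authors ran RMA, which corrects background and scales arrays to one another, and the values they deposited are log2 expression; this step can shrink the differences of dim probe sets. The version of RMA was not given in the sources used here. No further normalization was applied.

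Of 31099 probe sets, 57 controls were set aside. Of the 31042 tested, 20826 named exactly 1 gene, 436 several and 9780 none, and 0 symbols changed when updated through the RefSeq table of GRCr8. The highest mean over 6 arrays chose the probe set of a gene, and the values of its other probe sets are given beside it. Strains were compared with limma 3.58.1 (lmFit, eBayes) in R 4.3.3, strain as the only term, with Benjamini-Hochberg adjustment over 31042 probe sets and intervals at 95%. The fit was tested on simulated data with changes larger than most of the differences given here. That test does not show whether differences of the size given here would be found. Plots used Python 3.11.15 and matplotlib 3.10.9.

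Values on every array are given for genes with an unadjusted p under 0.05, for those without overlap and a difference of at least 0.2, and in any case for Mki67, Top2a, Cdk1, Ccnb1, Plk1, Pcna, Mcm2, Mcm6, Ccnd1 and Ccnd2. Of the further lists, the 6 genes of smallest p under 0.05 are named, and Cdkn1a, Cdkn1b, Cdkn1c and Rb1 in any case. Ncapg2 and the marker genes were named after their values were seen. The genes, the lists and the markers were chosen with earlier results of these data known, so no list was tested. Alternatives were each array left out, blocks, other normalizations, a filter on dim probe sets, other variances and the mean over probe sets. The number of arrays, 3 per strain, limits the precision.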

Additional observations from a re-analysis of the deposited data

How the results depend on the processing

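With 3 arrays per strain, each of 2 pooled animals, differences under about 0.2 were mostly within the spread, and 16 of the 45 genes were dimmer than the median probe set. These were 13 of the 30 mitotic, 2 of the 10 S-phase and 1 of the 5 G1 genes. Among them were Aurkb, Bub1b, Kif11 and Tyms, which the run on brighter probe sets therefore leaves out. In the alternatives run, 0 genes passed the adjusted threshold, 0 were lower by the unadjusted p, and the lowest adjusted p of a named gene was 0.0920. Of 404 alternative values of named genes, 394 kept their direction. The reversals were Ccnd2 without Dahl S array 3 (-0.0080; left-out range up to 0.2336), Mcm6 when Dahl S array 1 (-0.0567) or array 2 (-0.0159) was left out (range up to 0.1697), Pcna without Dahl S array 1 (-0.0241), congenic array 1 (-0.0079) or congenic array 3 (-0.0089; range up to 0.0976), Plk1 within the 4 arrays whose hybridization controls read low (-0.0177), and Mcm2 (-0.0276), Mcm6 (-0.2597) and Pcna (-0.2204) between the 2 arrays of high level. With 1 array left out, the count of genes higher ran from 8 to 21 (main 16), of mitotic genes from 8 to 18 (main 15) and of S-phase genes from 0 to 3 (main 1), and the S-phase median from 0.0125 to 0.1277 (main 0.0425). Ordinary in place of moderated variance gave 8 genes higher, all 8 mitotic. The S-phase count was 0 with ordinary variance, with trend and robust, with quantile normalization, with probe sets brighter than the median (29 of the 45 genes kept), within the 4 arrays of low level and with the replicate block. The S-phase median was 0.1501 within the 4 arrays of low level, -0.0650 between the 2 of high level and 0.1298 without Dahl S array 3 and congenic array 1, the last added after seeing the data. Between the 2 arrays of high level the median was 0.0820 for all genes and 0.1386 for the mitotic genes. The cause of these shifts was not tested. Arrays with the same number did not deviate together (correlations -0.07, -0.06 and -0.18). With 3 arrays per strain, these correlations cannot exclude that the numbers pair them. With the replicate block 18 genes were higher.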
